A study of Rattus norvegicus with 12 samples.

Results

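In DNA of control lineage rat ventral prostate, 211 autosomal windows of 100 bp held at least 3 times as many MeDIP-Seq reads in epithelial as in stromal cells, and they are described here mainly in the vinclozolin lineage, whose pools took no part in choosing them. The windows were chosen from the counts of 6 control lineage pools, divided by the pool total and multiplied by 1000000 (CPM). The counts of the 6 pools came to 60 or more in each window, which had every epithelial pool above every stromal pool and a mean epithelial CPM of at least 3 times the mean stromal CPM. They were 211 of 1381769 autosomal windows that passed the count minimum, or 1.53 in 10000, out of 26187330 autosomal windows and 27820300 windows in all. All 211 were tested in the vinclozolin pools. The choice changed when a control pool was left out. Epithelial control pool 1 differed from its replicates by 1.36 and 1.42 times the counting variance, when the other replicate pairs differed by 0.912 to 1.10 times. The rule gave 87, 45 and 93 windows without epithelial control pools 1, 2 and 3. It gave 274, 365 and 370 without stromal control pools 1, 2 and 3. The minimum of 60 then applied to the summed count of the remaining pools. It is harder to reach without an epithelial pool, which holds more reads at these windows than a stromal pool. The sizes of these lists therefore cannot tell a dependence on single pools from the effect of the count minimum. Of these lists, 51.7%, 20.0%, 38.7%, 30.7%, 36.2% and 32.2%, in the same order, had every epithelial above every stromal vinclozolin pool, compared with 40.8% of the 211 and 8.25% of all tested windows. These readouts were added after the data had been seen.

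DNA methylation in mammals is carried mostly by cytosines that precede a guanine, and its pattern is set during differentiation and copied at cell division, so that cell types of one organ keep different patterns. In MeDIP, an antibody to methylated cytosine pulls down fragments of the genome, so read number rises with methylation and also with the number of cytosines that can be methylated. The prostate epithelium lines the glands and makes their secretion. The surrounding stroma, mostly of mesenchymal origin, supports the glands and signals to the epithelium during development of the gland and in response to androgens.

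The animals were F3 generation male Hsd:Sprague Dawley rats, an outbred strain, of 19 to 21 days of age. Pregnant females of the F0 generation, from which the lineages descend, had received vinclozolin, a fungicide with antiandrogenic metabolites, at 100 mg/kg/day by injection in DMSO on days 8 to 14 of gestation, or DMSO alone in the control lineage. No later generation was itself treated. The 12 pools comprised 3 of epithelial and 3 of stromal cells per lineage, each from the combined tissue of several rats, and each group of rats gave cells of both types. Collagenase-digested tissue was separated by settling and low-speed centrifugation and not by a sort, and the stromal preparation was described by the study as mainly mesenchymal fibroblasts. Counts summed to between 57135700 and 112304623 per pool. Cell type markers, genes and sequence at the windows were not analysed here, because the reference at hand is of another genome build than the Rnor 6.0 positions, so the purity of the preparations was not tested. In pools of this kind, a larger share of cells with methylation at a window and more methylated cytosines per cell cannot be told apart.

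In the control pools, the values that chose the windows were as follows. Over the 211 windows together, the epithelial control pools held summed CPM of 53.3, 51.9 and 50.3, and the stromal control pools held 13.9, 16.3 and 16.6. The ratio of epithelial to stromal mean CPM had a median of 3.23 and ran from 3.00 to 7.61. The windows were modest peaks of reads, with a median summed control count of 66 (range, 60 to 111) against 86 over all windows past the minimum. Of the 211 windows, 135 (63.98%) had a summed count under 70, against 24.04% of all windows past the minimum. Just inside the limit of 3 times lay windows with control ratios of 3.003, 3.004 and 3.008 and vinclozolin ratios of 0.885, 1.29 and 1.68, and just outside lay windows with control ratios of 2.9998, 2.998 and 2.997 and vinclozolin ratios of 0.847, 1.05 and 4.77. Just inside the count minimum, 3 windows with a summed count of 60 had vinclozolin ratios of 1.76, 1.29 and 1.68, and just outside it 3 windows with a summed count of 59 had ratios of 2.48, 0.714 and 1.34. The members' control values are a description, since the rule used them.

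In the vinclozolin lineage, the same windows again held more reads in epithelial than in stromal cells. The summed CPM was 35.9, 38.6 and 36.9 in the epithelial vinclozolin pools and 24.9, 23.9 and 26.3 in the stromal vinclozolin pools. The lowest epithelial pool lay above the highest stromal pool, with means of 37.12 ± 1.37 and 25.03 ± 1.21 (SD, n = 3 pools each). The ratio of these means was 1.48. In the control pools it was 3.32, where the rule had required at least 3 in each window. Both vinclozolin groups lay between the epithelial and the stromal control pools. Since the control values chose the windows, neither comparison measures a difference between the lineages.

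**Figure D1:**
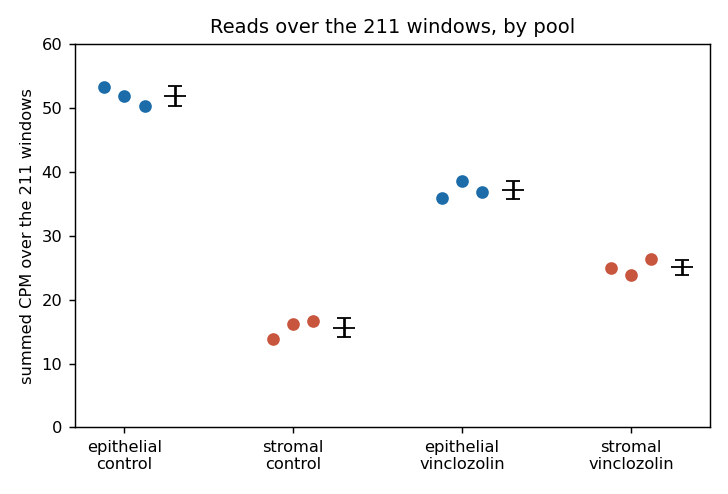
Summed CPM over the 211 windows in each of the 12 pools, grouped by cell type and lineage on the horizontal axis, where points are pools and the bar beside them gives the mean and SD (n = 3). Epithelial pools lie above stromal pools in both lineages, at 35.9 to 38.6 against 23.9 to 26.3 in the vinclozolin lineage, while the control values are those the windows were chosen on.

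Window by window, the direction seen in the control pools was also the more frequent direction in the vinclozolin pools. The ratio of epithelial to stromal mean CPM was above 1 in 182 of the 211 windows, counting 136 with a ratio from 1 to 2 and 46 with 2 or more, and it was under 1 in 29 windows. A ratio of 3 or more, the limit in the control pools, was reached by 8 windows. The median ratio was 1.48 (interquartile range, 1.17 to 1.97; range, 0.591 to 6.23), whereas over all tested windows it was 1.02. A ratio of at least 2 was found in 0.490% of all tested windows.

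Each single epithelial vinclozolin pool showed the same direction. Epithelial vinclozolin pool 1 exceeded all 3 stromal vinclozolin pools in 125 windows, pool 2 in 137 and pool 3 in 130, which compares with 25.9%, 27.3% and 34.2% of all tested windows. Stromal vinclozolin pool 1 lay below all 3 epithelial vinclozolin pools in 132 windows, pool 2 in 140 and pool 3 in 120, which compares with 24.8%, 31.1% and 29.8% of all tested windows. No pool stood alone in the direction.

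Every epithelial vinclozolin pool exceeded every stromal one in 86 of the 211 windows (40.8%, exact 95% interval 34.1 to 47.7), and the percentage over all tested windows was 8.25. The reverse order was found in 2 windows (0.948%), and in 6.12% of all tested windows. The intervals treat windows as separate draws and cover counting error only. All windows were read in the same pools, so the spread between pools is left out. Windows that touch can also share fragments, so they are not fully independent. The fitted log2 fold change (epithelial minus stromal, vinclozolin pools) was above 0 in 179 windows (84.8%), compared with 49.5% of all tested windows. A fitted fold change of 2 or more was found in 49 windows (23.2%), compared with 0.351% of all tested windows.

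By edgeR's quasi-likelihood test with Benjamini-Hochberg adjustment over all 1381769 windows, 15 of the 211 windows (7.11%, exact 95% interval 4.03 to 11.5) were called higher in epithelial vinclozolin pools at an adjusted p under 0.05, with 0.0522% of all tested windows called higher. The interval again leaves out the spread between pools, which all windows share. At an unadjusted p under 0.05, 87 windows (41.2%) were higher, with a background of 4.57%. None was called lower, with a background of 0.0529%. At an unadjusted p under 0.05, 1 window was lower, with a background of 4.69%. The edgeR exact test called 0 of the 211 lower and 13 higher, when it called 456 and 479 of all tested windows. A fit blocked by pool number called 0 lower and 13 higher, when it called 432 and 378 of all tested windows. In the quasi-likelihood fit without a block, the standard error of a window's log2 fold change had a median of 0.333 (range, 0.208 to 0.460). All 15 windows called higher had a fitted fold change of at least 2. Whether a ratio near the median of 1.48 could be called in a single window was not tested. In fits with 1 pool fewer, the count of 15 became 13 without epithelial vinclozolin pool 1, 3 without pool 2 and 7 without pool 3, and 16, 4 and 10 without stromal vinclozolin pools 1, 2 and 3. The number of all tested windows called higher moved along with it, from 721 with all pools to 554, 74, 153, 947, 95 and 306 in the same order. The number of the 211 windows with an unadjusted p under 0.05 in the same direction was 69 to 83 in these fits. The share of all tested windows at that limit was not computed for them.

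**Figure D2:**
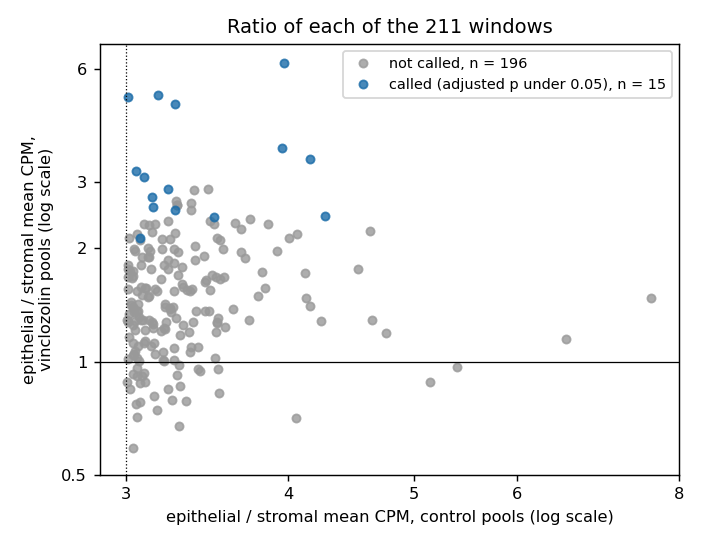
Ratio of epithelial to stromal mean CPM of each of the 211 windows in the control pools (horizontal axis, log scale, dotted line at the limit of 3) and in the vinclozolin pools (vertical axis, log scale, line at 1). Blue points are the 15 windows called higher in epithelial vinclozolin pools and grey points the other 196, and 29 windows lie under 1.

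The windows called higher lay on 9 autosomes. The smallest p-value belonged to chr13:52594401-52594500 (Rnor 6.0), with CPM of 0.242, 0.256 and 0.362 in the epithelial and 0.0727, 0.0356 and 0.0696 in the stromal vinclozolin pools. These came from counts of 20, 28 and 27 against 8, 4 and 5, and all 3 epithelial pools lay far above the stromal ones. Its log2 fold change was 2.23 ± 0.335 (SE, n = 3 pools a group), with an adjusted p of 9.94e-05 by edgeR's quasi-likelihood test, and it stayed called whichever vinclozolin pool was left out. The window that touches it, chr13:52594301-52594400, had missed the limit in the control pools with a ratio of 2.997, and its vinclozolin ratio was 4.77.

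At chr18:3263701-3263800, the epithelial vinclozolin pools held 0.157, 0.165 and 0.188 CPM and the stromal ones 0.0273, 0.0267 and 0.0278. These were counts of 13, 18 and 14 against 3, 3 and 2. Its vinclozolin ratio of 6.23 was the highest of all 1381764 tested windows with a read in a stromal vinclozolin pool, and its log2 fold change was 2.55 ± 0.456 (SE), with an adjusted p of 0.00221 by edgeR's quasi-likelihood test. At chr3:56062701-56062800, the epithelial vinclozolin pools held 0.169, 0.165 and 0.214 CPM and the stromal ones 0.0363, 0.0445 and 0.0278. Its log2 fold change was 2.20 ± 0.419 (SE), with an adjusted p of 0.00469. These 3 windows, on chromosomes 13, 18 and 3, were the ones that stayed called in each of the 6 fits that left out 1 pool.

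The other 12 called windows had fitted log2 fold changes between 1.09 and 2.11 and adjusted p-values between 0.00126 and 0.0452 in the quasi-likelihood test, and each stayed called in 1 to 4 of the 6 fits with 1 pool left out. Of these, chr15:3603801-3603900 held 0.278, 0.302 and 0.255 CPM in epithelial and 0.0999, 0.0445 and 0.0974 CPM in stromal vinclozolin pools. The window chr5:14414401-14414500 held the highest epithelial CPM of a single pool among the called windows, at 0.339, 0.421 and 0.335 against 0.136, 0.116 and 0.181 in stroma. At chr18:53422501-53422600, stromal vinclozolin pool 3 held no read, and the counts were 13, 17 and 11 against 6, 4 and 0. Windows chr7:98708201-98708300 and chr7:98708301-98708400 touch, and were the only called pair in 1 region, with log2 fold changes of 1.38 and 1.48. The call of the window at chr7:98708201 was lost in edgeR's exact test (adjusted p = 0.0881), at summed count minimums of 20 and 10 or none (adjusted p = 0.0662, 0.0643 and 0.107) and in a fit blocked by pool number (adjusted p = 0.0763).

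**Figure D3:**
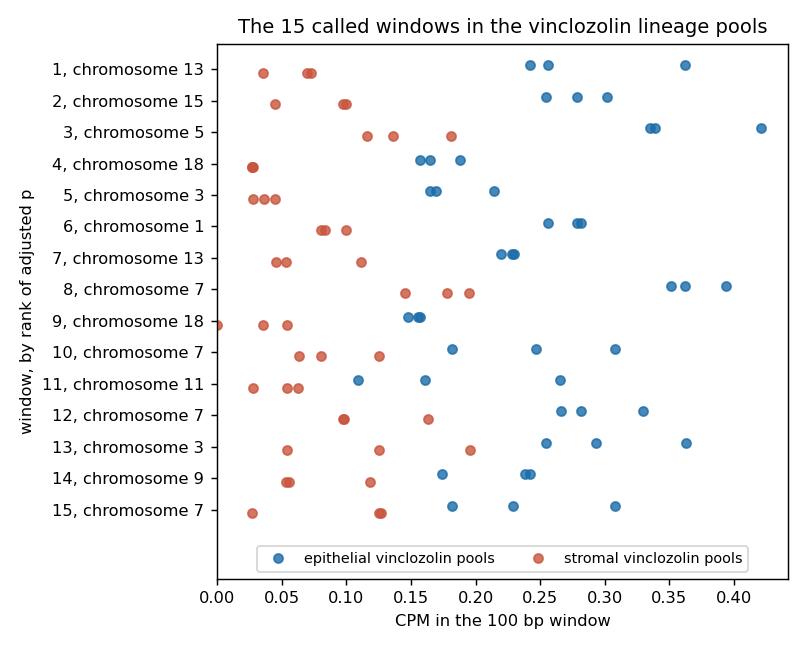
CPM of the 15 called windows in the 3 epithelial (blue) and 3 stromal (red) vinclozolin pools, with windows ranked by adjusted p from top to bottom and named by chromosome. In each window all epithelial pools lie above all stromal pools, and the gap is wide at the chromosome 13 window of rank 1 and narrow in several windows of ranks 10 to 15.

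The order of the pools at the called windows extended into windows that touch them. A fragment can be counted in several touching windows, so these are not separate measurements. The summed counts of a stretch can hold a fragment more than once. A stretch of touching windows with every epithelial vinclozolin pool above every stromal one ran for 200 to 700 bp around them, with a median of 400 bp, and 6 of the 15 lay in a stretch of at least 500 bp. Around chr13:52594401 it spanned 600 bp, chr13:52594101-52594700, with counts of 71, 92 and 87 in epithelial and 28, 19 and 11 in stromal vinclozolin pools. Around chr18:3263701 it spanned 400 bp, chr18:3263601-3264000, with counts of 37, 47 and 36 against 9, 9 and 8. Around chr3:56062701 it spanned 400 bp, chr3:56062601-56063000, with counts of 56, 59 and 46 against 10, 17 and 10. No count minimum applied to the windows of a stretch, so some held few reads. The first window of the chromosome 13 stretch held 0.0121, 0.00915 and 0.0268 CPM in epithelial and 0, 0 and 0 CPM in stromal vinclozolin pools. The median stretch was also 400 bp around the 706 other windows called higher in the vinclozolin pools. Around the 86 members with separate pools the median was 300 bp, and around a regular sample of 1105 tested windows with separate pools it was 200 bp. Stretches of at least 500 bp were found around 39.2% of the 706 windows, 31.4% of the 86 and 4.71% of the 1105.

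**Figure D4:**
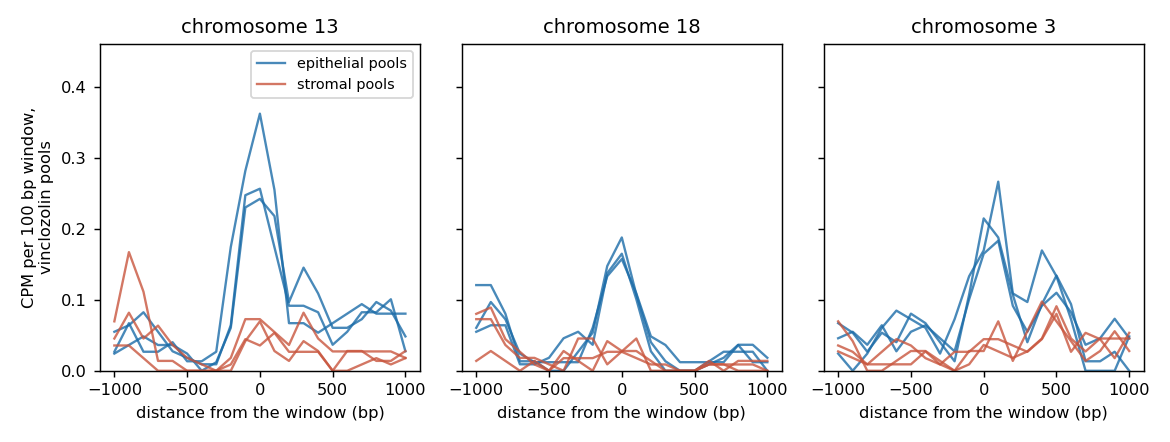
CPM per 100 bp window by distance from the called window, for the windows on chromosomes 13, 18 and 3 that stayed called without any 1 vinclozolin pool, with a line for each epithelial (blue) and stromal (red) vinclozolin pool. On chromosomes 13 and 18 the epithelial lines form a peak over the window, where the stromal lines stay low. On chromosome 3 the stromal lines are also low at the window, but epithelial pools 1 and 2 are highest 100 bp after it, at 0.266 and 0.183 CPM. The stromal pools there reach 0.0696 to 0.0908 CPM at 500 bp after the window.

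Not all windows kept their direction. The lowest vinclozolin ratio was 0.591, at chr15:14201601-14201700. Its control counts were 20, 21 and 14 in epithelial and 2, 7 and 8 in stromal pools, and its vinclozolin counts were 7, 10 and 7 in epithelial and 14, 23 and 9 in stromal pools. The epithelial vinclozolin CPM of 0.0847, 0.0915 and 0.0938 lay below the stromal CPM of 0.127, 0.205 and 0.125. Its log2 fold change was -0.82 ± 0.356 (SE), with an adjusted p of 0.447 in edgeR's quasi-likelihood test. The other window with every epithelial vinclozolin pool below every stromal one was chr19:45503601-45503700, with control counts of 21, 21 and 20 against 1, 10 and 3 and vinclozolin counts of 7, 12 and 9 against 17, 14 and 12. Its ratio went from 4.05 in the control to 0.706 in the vinclozolin pools, and its adjusted p in the vinclozolin pools was 0.697. The other 3 of the 5 windows with the smallest p on the lower side were chr1:7178001-7178100, chr10:35126601-35126700 and chr9:71828901-71829000, where the pools overlapped, with log2 fold changes of -0.40, -0.45 and -0.35.

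The window farthest apart in the control pools was not the farthest apart in the vinclozolin pools. It was picked by control values that the rule had used, and its stromal control counts were low. The highest control ratio, 7.61, was at chr16:89054101-89054200, where control counts were 20, 18 and 23 in epithelial and 4, 1 and 2 in stromal pools. In the vinclozolin pools the counts were 12, 15 and 12 against 13, 11 and 6, with a ratio of 1.48, the CPM of the groups did not overlap, and the log2 fold change was 0.49 ± 0.347 (SE). The control ratio of 6.55 at chr2:244097101-244097200 was followed by a vinclozolin ratio of 1.15.

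Grouped by control ratio and by control reads, the windows of the upper class had the higher vinclozolin ratios. The median ratio did not rise further in the few most extreme windows. Of 95 windows with a control ratio from 3 to 3.2, 32 (33.7%) had every epithelial above every stromal vinclozolin pool and the median vinclozolin ratio was 1.38. These values were 29 of 69 (42.0%) and 1.54 for control ratios from 3.2 to 3.5, and 25 of 47 (53.2%) and 1.68 above that. By summed control count, the values were 34 of 89 (38.2%) and 1.40 at 60 to 64, 31 of 83 (37.3%) and 1.44 at 65 to 74, and 21 of 39 (53.8%) and 1.67 at 75 or more. The 17 windows with a control ratio of at least 4 had a median vinclozolin ratio of 1.48, with 7 of 17 (41.2%) separate. Of these 17, 2 (11.8%) were called higher and 15 (88.2%) had a fitted log2 fold change above 0. The 3 windows with a summed control count of at least 100 had a median of 1.36, and 0 were called higher. The windows called higher numbered 7 of 95, 3 of 69 and 5 of 47 by control ratio and 5 in each class of summed count. All tested windows of these count classes gave 7.93%, 8.13% and 8.35% separate, 0.0448%, 0.0455% and 0.0557% called higher, and a median ratio of 1.02 in each. These are descriptions of windows grouped by values the rule used, with no test of the trend.

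The difference between the cell types was centred on the windows. Averaged over the 211 windows, the vinclozolin pools held 0.176 ± 0.00648 CPM in epithelial and 0.119 ± 0.00576 CPM in stromal cells (SD, n = 3 pools). Both cell types had a peak there, since the level 300 bp upstream in genome order was 0.0660 and 0.0495 CPM. In the next window on each side the vinclozolin ratio was 1.44 and 1.46, at 300 bp it was 1.33 and 1.31, and at 500 bp it was 1.17 and 1.16. In the control pools, the ratio fell from 3.32 at the window to 2.25 and 2.24 at 100 bp and to 1.36 and 1.40 at 300 bp. At 500 bp the control ratios were 1.22 and 1.19. Every epithelial vinclozolin pool exceeded every stromal one at all distances from 800 bp before to 600 bp after the windows, and also from 1400 to 1000 bp before them, with ratios of 1.05 to 1.11, and at 1000 bp after them, with a ratio of 1.07. At 2000 bp the vinclozolin ratios were 1.02 and 1.01. A fragment can reach into several windows, so neighbouring windows are not separate measurements.

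**Figure D5:**
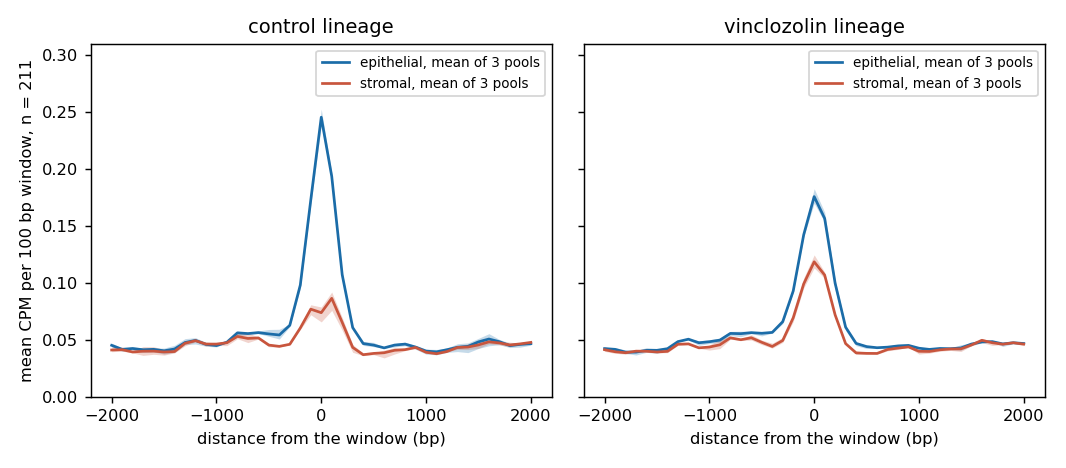
Mean CPM per 100 bp window over the 211 windows by distance from the window, in the control (left) and vinclozolin (right) lineage, where lines are means of 3 epithelial (blue) or stromal (red) pools and shaded bands their range. The control peaks differ 3.32-fold at the window, where the rule chose them, and the vinclozolin peaks 1.48-fold, and in both lineages the lines come close at 2000 bp.

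Farther from the windows, the median ratios were close to 1. In the ring from 500 bp to 1 kb around a window, the median vinclozolin ratio was 1.07, compared with 0.986 around a regular sample of tested windows. It was 1.02 against 0.998 from 1 to 10 kb, 1.01 against 1.00 from 10 to 100 kb and 1.01 against 1.00 from 100 kb to 1 Mb. The summed CPM of a ring had every epithelial vinclozolin pool above every stromal one around 12.3%, 17.5%, 22.7% and 34.1% of the 211 windows, from the inner to the outer ring, compared with 6.80%, 11.04%, 17.8% and 22.8% around the sampled windows. No test was made of these differences.

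The windows were spread over the genome. All 20 autosomes held some, from 3 on chromosome 12 to 28 on chromosome 1, and their number per 1000000 tested windows ran from 76.7 on chromosome 17 to 216 on chromosome 11. The median distance between neighbours was 6.69 Mb. Within 2 Mb of a chromosome end lay 4 windows (1.90%), compared with 2.83% of tested windows. Windows whose starts lay at most 1000 bp apart formed 198 regions, of which 185 were single windows and 13 held 2 windows. In 12 of these 13 the windows touched.

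The 26 windows in regions of 2 had a median vinclozolin ratio of 1.74, with 25 of 26 fitted log2 fold changes above 0, 15 windows with separate pools and 3 called. For the 185 single windows, the median was 1.42, with 154 above 0, 71 with separate pools and 12 called. Of all tested windows, 49.5% had a value above 0, 8.25% had separate pools and 0.0522% were called higher. The region with the most control reads was chr2:203488201-203488400. In its second window, chr2:203488301-203488400, the vinclozolin CPM was 0.278, 0.275 and 0.295 in epithelial and 0.173, 0.107 and 0.0835 in stromal pools, so that the groups did not overlap, and the log2 fold change was 1.12 ± 0.273 (SE), with an adjusted p of 0.0535 by edgeR's quasi-likelihood test. The least difference among these regions was at chr3:158492601-158492800, with log2 fold changes of 0.04 and 0.06 in its windows. At chr16:89054101-89054300, the region with the highest control ratio, they were 0.49 and -0.12.

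Set beside the control lineage, the vinclozolin lineage held fewer reads at these windows in epithelial cells and more in stromal cells. The median ratio of vinclozolin to control mean CPM was 0.703 in epithelial cells, with 197 windows lower and 14 higher, and 90 windows had every vinclozolin pool below every control pool. Of all tested windows, 60.2% were lower in epithelial cells and 11.4% had their pools in this order. In stromal cells the median ratio was 1.53, with 188 windows higher and 23 lower, and 72 windows had every vinclozolin pool above every control pool. Of all tested windows, 38.2% were higher in stromal cells and 5.86% had their pools in this order. Over all tested windows, the medians were 0.937 and 0.917. These values are a description and no test was made, because the windows were chosen for high epithelial and low stromal values in the same control pools.

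The same rule turned around, with stromal pools at least 3 times as high, also gave 211 windows. In the vinclozolin pools, 99 of those (46.9%) had every epithelial pool below every stromal pool and 25 (11.8%) were called lower, compared with 86 (40.8%) and 15 (7.11%) in the direction of the rule for the windows described here. Of all tested windows, 6.12% lay below and 0.0529% were called lower, against 8.25% above and 0.0522% called higher. The median ratio of epithelial to stromal CPM was 0.617 in those, from 0.305 in the control pools. The difference between the sets was not tested.

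The windows were also set against positions that the study had listed for differences between the lineages. The lists used were those of DNA methylation regions and mRNA transcripts in each cell type. The study's lists of small and long noncoding RNAs were not used. Within 10 kb, 8 of the 211 windows (3.79%) had an entry in those lists, 4 with a gene symbol, and 203 had none, compared with 3.02% of all tested windows that had an entry. The window chr1:7178001-7178100 lay inside a listed stromal region assigned to AABR07000257.1, and its vinclozolin log2 fold change was -0.40. The window chr2:244097101-244097200 lay inside a listed stromal region assigned to Tspan5, a tetraspanin of the cell membrane, and its log2 fold change was 0.08. The window chr1:32013801-32013900 lay 2401 bp from a listed stromal region assigned to Trip13, an ATPase of meiotic recombination and the spindle checkpoint. Its log2 fold change was 0.66, with an adjusted p of 0.537 by the quasi-likelihood test. The window chr4:10295801-10295900 lay 680 bp from the listed transcript start of Fgl2, a fibrinogen-like protein with a role in immune regulation, and its log2 fold change was -0.17, with an adjusted p of 0.941. None of the 4 was among the called windows. The lists came partly from these same pools and are no independent evidence on the windows.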

How the data were processed

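DNA of 12 pools had been enriched by MeDIP and sequenced. After trimming in Trimmomatic, the authors aligned reads by Bowtie2 to the Rnor 6.0 genome and used MEDIPS for counts in windows of 100 bp. The counts were deposited as whole numbers without normalization, and no count exceeds 300. The highest count over the tested windows was exactly 300 in each of the 12 pools, so the counts look capped there. Pool totals would then leave out reads above the cap. Duplicate handling and versions are not given in the sources used here. The 12 RPKM columns and the authors' means, fold changes and p-values were not used.

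CPM used the sum of all windows of a pool. Epithelial and stromal vinclozolin pools were compared with edgeR 4.0.16 in R 4.3.3 (quasi-likelihood test, TMM factors from the 6 pools, 1 common dispersion), and p-values were adjusted by Benjamini-Hochberg over 1381769 windows. The fit was tested on simulated counts. DESeq2 1.42.0 was run on chromosome 20 alone. Intervals of shares are exact (Clopper-Pearson). Standard errors of log2 fold changes were derived from the quasi-likelihood test, as the absolute log2 fold change divided by the square root of its F statistic. Pools come from separate rats by lineage. P-values rest on 3 pools a group and on a spread between pools estimated with information from all tested windows. Replicate vinclozolin pools differed by 0.912 to 1.10 times the counting variance.

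The windows and lists were chosen with earlier results of these data known. Windows were named in the text if they lay in the 12 regions with most member windows, had one of the 5 smallest p-values in either direction or lay nearest a limit of the rule, and the other called or listed windows were named after their values were seen. Planned analyses of genes, cell type markers, CpG density and sequence were not run, since the reference is of another build.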

Additional observations from a re-analysis of the deposited data

Results flagged for a closer look

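Of the 211 windows, 2 had every epithelial pool above every stromal pool in the control lineage and every epithelial pool below every stromal pool in the vinclozolin lineage. At chr15:14201601-14201700 the epithelial to stromal ratio was 3.04 in the control and 0.591 in the vinclozolin pools. At chr19:45503601-45503700 it was 4.05 and 0.706. The difference between the lineages was not tested, since the control values had chosen the windows. In all tested windows, 6.12% had their vinclozolin pools in this order.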

How the results depend on the processing

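The number of windows called higher in epithelial vinclozolin pools was 12 to 17 with the exact test, other scalings and summed count minimums of 20 or 10. It was 8 with no count filter, where 22631931 windows entered the adjustment. Leaving out each vinclozolin pool gave 3 to 16. The background moved as well. Of all windows tested in the main fit, 721 were called higher there, 479 with the exact test and 740 with median-of-ratios size factors. At summed count minimums of 20 and 10 these calls numbered 383 and 369, and with no count filter 195. Without TMM, calls over all tested windows were 881 higher and 535 lower, in place of 721 and 731. On chromosome 20, which held 7 of the windows, edgeR and DESeq2 both called 0 of these, with 1 at an unadjusted p under 0.05 by each, and of all 36545 windows tested there DESeq2 called 0 higher and edgeR, adjusted over that chromosome, 25. The number of windows with separate pools was 81 with TMM-scaled CPM (7.18% of all tested windows) and 96 to 107 without each vinclozolin pool, where 12.1% to 15.9% of all tested windows had separate pools since fewer pools need to separate. Of windows chosen here, 1 of the 3 windows with a summed control count of at least 100 had separate pools. The median ratio of the windows chosen here was 1.44 to 1.52 with TMM-scaled CPM, without each vinclozolin pool and with 1 value per region. It was not as steady among lists chosen with other limits or without a control pool. Where computed for these lists, it ran from 1.16 without epithelial control pool 2 to 1.55 without epithelial control pool 1.

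The number of windows chosen depended on the limits, with 6653 at 2 times the mean, 17 at 4 times, 2331 at a summed count of at least 40 and 3 at 100. Leaving out 1 control pool gave 45 to 370 windows, with 10 to 83 of the 211 among them. The summed count then covered 5 pools. In a readout added after seeing the data, 22.0% of the 6653 windows and 7 of the 17 windows had separate vinclozolin pools in the same direction.

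The labels give the same pool numbers to both cell types, but do not say that a number marks one group of rats. The deviations of same-numbered epithelial and stromal pools had correlations of -0.0622, 0.000792 and -0.0188 in the vinclozolin lineage, and other numbers reached 0.0517. A fit with the pool number as a replicate block called 13 windows, all among the 15. Calls over all tested windows then fell from 721 higher and 731 lower to 378 and 432. The windows chr3:166690101-166690200 (adjusted p = 0.0563) and chr7:98708201-98708300 (adjusted p = 0.0763) were not called under the block in edgeR's quasi-likelihood test.

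Of windows named singly, 5 uncalled ones changed sign when a vinclozolin pool was left out, and their log2 fold changes then ran from -0.318 to 0.0782 at chr16:89054201-89054300, -0.19 to 0.40 at chr2:244097101-244097200, -0.20 to 0.26 at chr3:158492601-158492700, -0.66 to 0.39 at chr3:158492701-158492800 and -0.39 to 0.15 at chr4:10295801-10295900. No called window changed sign. The cause of the changes was not tested.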
